A study of Oryza sativa with 12 samples.

Results

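In leaf primordia of rice, 195 of 28962 identifiers starting with Os stood apart in plants labelled as knockouts of OsPIN1c and OsPIN1d, with the mean levels of both OsPID knockout lines near WT. They were chosen on FPKM, the reads of a gene scaled by its length and by the depth of the library. The log2 ratio of mean FPKM + 1 between ospin1c ospin1d and WT was at least 0.8 or at most -0.8. The same ratio lay between -0.5 and 0.5 for both lines labelled as OsPID knockouts. All 3 ospin1c ospin1d libraries lay above, or all below, the other 9. The higher set held 114 identifiers and the lower set 81. Values in these contrasts therefore describe the choice and are given without a test.

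Auxin is moved through plant tissue from cell to cell, and PIN proteins are the carriers that export it. Their uneven placement in the plasma membrane gives the flow a direction, which at the shoot apex bears on where leaves start and how veins are laid out. PINOID-type kinases phosphorylate PIN proteins, so carrier and kinase are usually described as acting in the same transport step.

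The study compared ospin1c ospin1d, ospid C1, ospid C2 and WT, the cultivar Nipponbare, with 3 libraries each of total RNA from leaf primordia in vegetative growth. The labels name C1 and C2 as separate ospid lines and a single ospin1c ospin1d genotype, and give neither alleles nor plant age. Any other trait of the ospin1c ospin1d plants cannot be told apart from the loss of both carriers. Whether a replicate was a plant of its own or a pool is not stated. All p-values thus measure only the spread between these libraries, which may be technical.

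The steps between FPKM values implied totals of 15211547 to 16422849 reads per library. Reads recovered on the listed identifiers made up 99.96% to 99.98% of these totals, so reads not counted on identifiers are hardly in them. At these totals 1 read on a gene of 1 kb was worth 0.0609 to 0.0657 FPKM. Replicates of a group correlated across identifiers at 0.960 to 0.980 on the log2(FPKM + 1) scale. No pair agreed within sampling noise, the lowest chi-square per identifier being 8.76. The deposited tables pair no identifier with a gene name, and 0 of the 195 members matched the reference table of rice genes. No member is therefore given a name or role, the targeted genes were not found by name, and markers of leaf primordia were not checked. In bulk tissue, fewer cells of a type and less RNA per cell cannot be told apart.

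The window for the ospid lines set aside part of both directions. Without it the other conditions picked 170 higher and 108 lower identifiers, so 56 and 27 were left out because the mean of at least 1 ospid line fell outside the window; whether that line differed from WT was not tested for them. The fold threshold cut through a continuous range. The higher member nearest to it averaged 11.9 FPKM in ospin1c ospin1d and 6.39 FPKM in WT, and the nearest identifier outside averaged 11.7 FPKM in ospin1c ospin1d and 6.29 FPKM in WT. In the lower set the nearest log2 ratios were -0.802 and -0.824 inside the threshold, and -0.793 and -0.791 outside it.

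**Figure D1:**
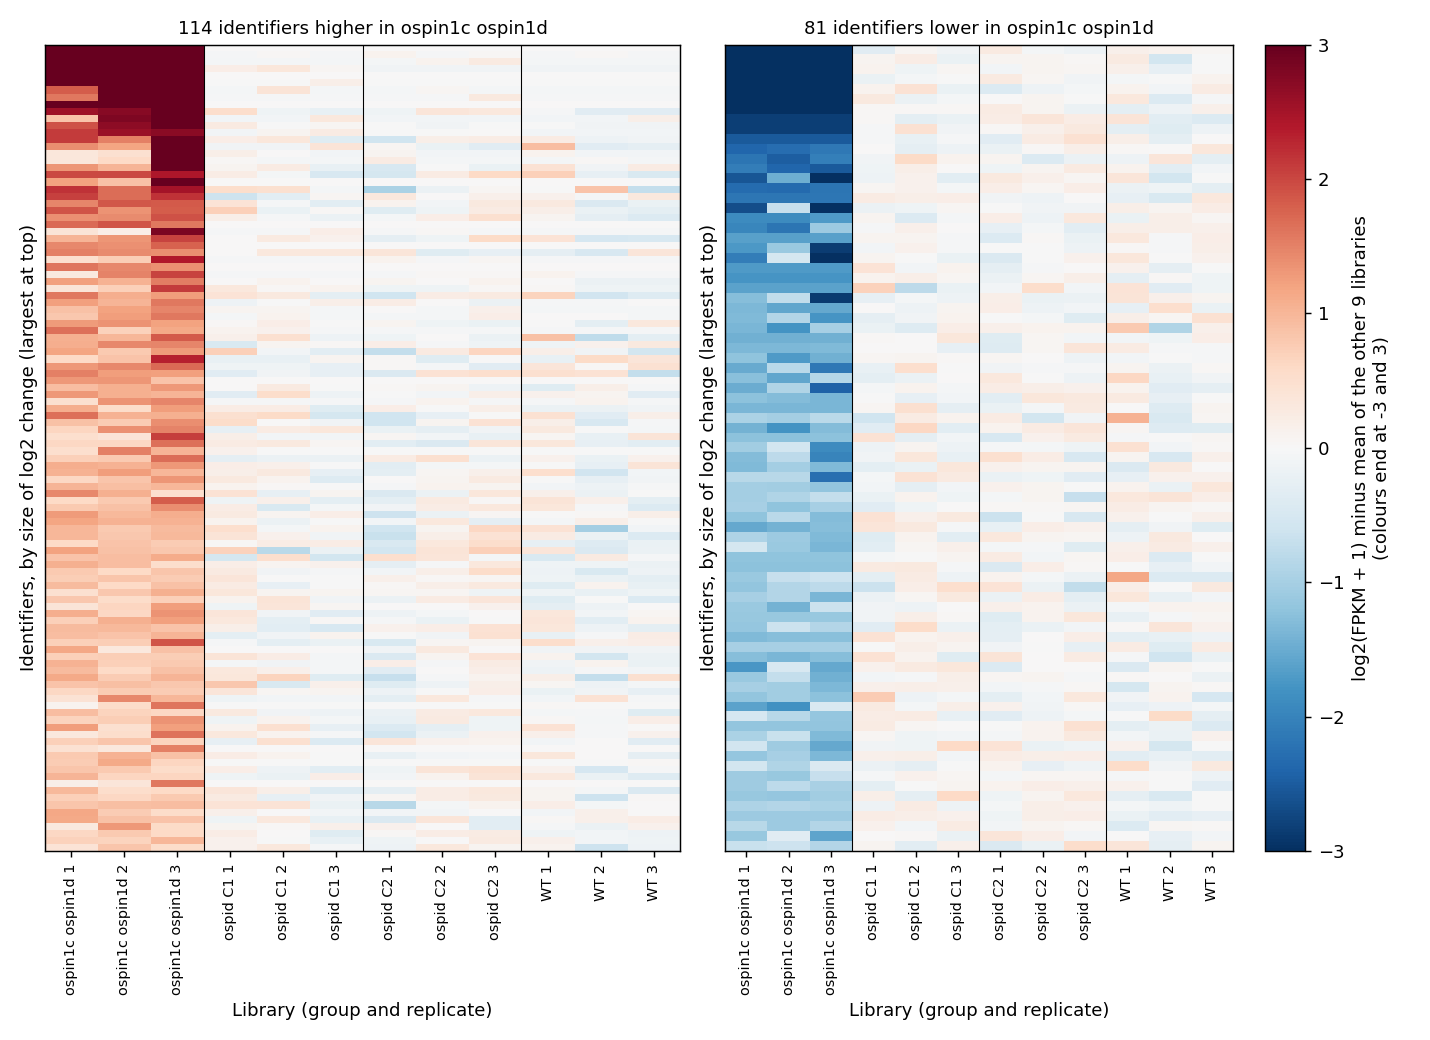
Heat map of the 114 higher (left) and 81 lower (right) identifiers, 1 per line, across the 12 libraries; colour is log2(FPKM + 1) minus the mean of the 9 libraries outside ospin1c ospin1d. The 3 ospin1c ospin1d columns differ from the rest by construction, and their depth of colour varies between the 3 libraries for many identifiers.

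The contrast was also fitted with limma across the 21250 features that reached 1 FPKM in 3 libraries or more, on log2(FPKM + 1). Of the higher set 87 of 114 met that filter, and 56 were called higher in ospin1c ospin1d than in WT at an adjusted p under 0.05 by limma, beside 1.32% of all features. All 81 of the lower set met it and 66 were called lower, beside 0.984%. In either direction 2.31% of features were called. A low member could pass the filter through the ospin1c ospin1d libraries alone, and this contrast chose the members, so nothing is read from those counts. The number called in the higher set was 20 when ospin1c ospin1d replicate 1 was left out, 22 for replicate 2, 16 for replicate 3, and 34 for WT replicate 3. In the lower set it was 43 when WT replicate 3 was left out. Of all features 490 were called. That number became 241, 227 or 185 when ospin1c ospin1d replicate 1, 2 or 3 was dropped, 322, 304 or 203 when WT replicate 1, 2 or 3 was dropped, and 788 when ospid C2 replicate 1 was dropped.

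The higher set was low outside ospin1c ospin1d. The median of their mean levels was 4.10 FPKM in ospin1c ospin1d, 0.663 FPKM in ospid C1, 0.602 FPKM in ospid C2 and 0.664 FPKM in WT. Over all 28962 Os identifiers, with no filter on low values either, the median was 3.12 FPKM in ospin1c ospin1d, 3.58 FPKM in ospid C1, 3.20 FPKM in ospid C2 and 2.999 FPKM in WT. The WT mean was under 1 FPKM for 67 of the 114, and for 10577 of all Os identifiers. All 3 WT libraries were listed at 0 for 21 of the 114, and all 9 libraries outside ospin1c ospin1d for 10. Of all Os identifiers these held for 2107 and 514. The choice itself asked for values lower outside ospin1c ospin1d than in it, so these levels and counts are a description. The median member had 60 reads in an ospin1c ospin1d library and 11 in a WT library. For 19 of the 114 at least 1 ospin1c ospin1d library had fewer than 10 reads, as for 9086 of all 28962 Os identifiers.

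Both members with the largest ratios in the higher set were detected almost only in ospin1c ospin1d. Os03g0223301, on chromosome 3, had 95.2, 32.5 and 144 FPKM in ospin1c ospin1d, and each library of ospid C1, ospid C2 and WT was listed at 0. Its lowest ospin1c ospin1d library rested on 830 reads. Os06g0204100, on chromosome 6, had 39.3, 57.4 and 61.2 FPKM in ospin1c ospin1d, from 667 to 1080 reads. It had at most 0.112 FPKM in the ospid libraries, and 1 read in a single WT library.

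Since no other member can be named, the ones below are given by chromosome and by place, the count of Os identifiers from the start of the chromosome in identifier order. They were chosen for their level, place or spread after their values were seen. At place 543 on chromosome 5, a member had 24.4, 27.05 and 35.5 FPKM in ospin1c ospin1d, and the other 9 libraries were listed at 0. Its 3 ospin1c ospin1d libraries lay closer together than those of Os03g0223301.

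A smaller number of the higher set were abundant in WT too, 14 of the 114 having a WT mean of at least 10 FPKM. Of all 28962 Os identifiers 8881 did. The highest ospin1c ospin1d level belonged to the member at place 36 on chromosome 6, with 348, 357 and 509 FPKM in ospin1c ospin1d. It had 151, 131 and 118 FPKM in ospid C1, 129, 155 and 188 FPKM in ospid C2, and 141, 110 and 100.3 FPKM in WT. The ospid and WT libraries overlapped, and the means were 405 ± 90.5 FPKM in ospin1c ospin1d and 117 ± 21.2 FPKM in WT (SD, n = 3 each).

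At place 1601 on chromosome 5, a member had 64.7, 64.5 and 88.2 FPKM in ospin1c ospin1d, 18.1, 14.9 and 10.8 FPKM in ospid C1, 10.5, 18.8 and 23.9 FPKM in ospid C2, and 26.03, 13.02 and 10.98 FPKM in WT. Its ospid libraries lay within or near the WT range. At place 194 on the same chromosome, a member near the threshold had 144, 152 and 155 FPKM in ospin1c ospin1d and 92.5, 78.5 and 81.96 FPKM in WT. At place 1127 on chromosome 6, a member had 339, 283 and 316 FPKM in ospin1c ospin1d, 207, 252 and 180 FPKM in ospid C1, 169, 227 and 248 FPKM in ospid C2, and 150, 191 and 144 FPKM in WT. Its ospid libraries overlapped WT and reached above it, with log2 ratios against WT of 0.40 for ospid C1 and 0.41 for ospid C2, near the edge of the window.

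The lower set was expressed at moderate levels outside ospin1c ospin1d. The median of its mean levels was 1.21 FPKM in ospin1c ospin1d, 6.80 FPKM in ospid C1, 7.07 FPKM in ospid C2 and 5.79 FPKM in WT. The median member had 19 reads in an ospin1c ospin1d library and 122 in a WT library. All 3 ospin1c ospin1d libraries were listed at 0 for 21 of the 81 members, and all 3 had fewer than 10 reads for 30. Of all 28962 Os identifiers these held for 1899 and 7101, and of the 19641 tested ones for 37 and 192. The choice itself asked for low ospin1c ospin1d values and a WT level above 0, so these levels and counts are a description. The median recovered length was 1089.5 bases in the higher set, 1278 bases in the lower set and 1489 bases over all Os identifiers. These lengths are lower bounds, looser where few libraries or reads were above 0, so no difference in gene length is read from them.

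Both members with the largest ratios in the lower set lay on chromosome 8, 5 places apart. Os08g0330800 was listed at 0 in each ospin1c ospin1d library. It had 39.2, 51.8 and 45.6 FPKM in ospid C1, 59.7, 47.1 and 44.6 FPKM in ospid C2, and 55.1, 53.7 and 51.6 FPKM in WT, the WT values resting on 758 to 787 reads. Os08g0332100 had 0, 0 and 2 reads in ospin1c ospin1d and 882 to 1493 reads in WT. Both were thus close to undetected in ospin1c ospin1d and well covered elsewhere.

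On chromosome 4, at place 195, a member was likewise listed at 0 in ospin1c ospin1d, and had 30.3, 26.7 and 33.3 FPKM in WT. Not every member of the lower set was near 0. The one at place 418 on chromosome 8 had 4.05, 6.22 and 5.56 FPKM in ospin1c ospin1d, 196 to 271 FPKM over the 6 ospid libraries, and 216, 220 and 240 FPKM in WT. Its ospin1c ospin1d values rested on 54 to 82 reads. The highest WT level belonged to the member at place 508 on chromosome 11, with 333, 437 and 263 FPKM in ospin1c ospin1d, 681, 697 and 809 FPKM in ospid C1, 752, 767 and 698 FPKM in ospid C2, and 732, 721 and 634 FPKM in WT. Its log2 ratio was -1.01, so a large part of the WT level was still present in ospin1c ospin1d.

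**Figure D2:**
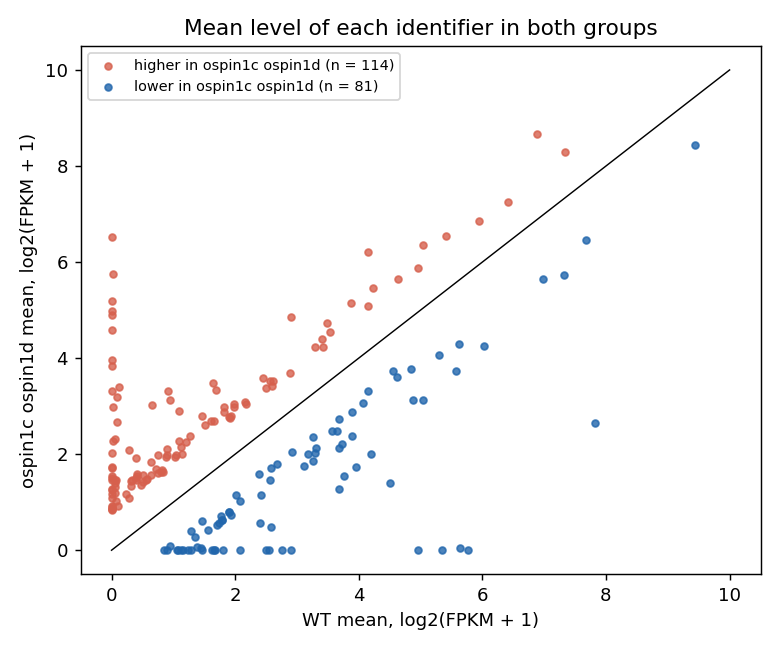
Mean level of each member as log2(FPKM + 1) in ospin1c ospin1d (vertical axis) and in WT (horizontal axis); points are identifiers and the line marks equal levels. At the left edge, 21 of 114 higher members are listed at 0 in WT, and along the bottom, 21 of 81 lower members are listed at 0 in ospin1c ospin1d.

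Place along the chromosomes was not used to choose the members. In these identifiers the digits after Os give the chromosome and those after g the order on it. An excess of lower values on chromosome 8 was already known from calls on these libraries, so it is no separate evidence here. Of the lower set, chromosome 8 held 24 of 81 members (29.6%) and 6.81% of Os identifiers. Chromosome 11 held 14 (17.3%) and 6.03% of identifiers, and chromosome 4 held 13 (16.05%) and 8.71% of identifiers. These 3 chromosomes were picked for holding the most lower members. Together they held 51 of the 81 (63.0%), including 19 of the 21 members listed at 0 in ospin1c ospin1d. They held 22 of the 114 in the higher set (19.3%), near their 21.5% of Os identifiers.

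The lower set lay in a limited part of some chromosomes and not of others. Its 13 members on chromosome 4 lay between 3.45% and 22.9% of the way along 2524 identifiers, where the higher set spanned 51.1%. The 24 on chromosome 8 lay between 21.2% and 65.5% of 1972 identifiers, and the 4 on chromosome 10 between 7.44% and 15.9% of 1506. The 5 of the higher set on chromosome 8 lay in much the same part, between 12.7% and 68.4%. Its 7 on chromosome 10 lay between 7.04% and 95.0%. On chromosome 11 the 14 members of the lower set spanned 97.8% of the identifiers, in separate groups.

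**Figure D3:**
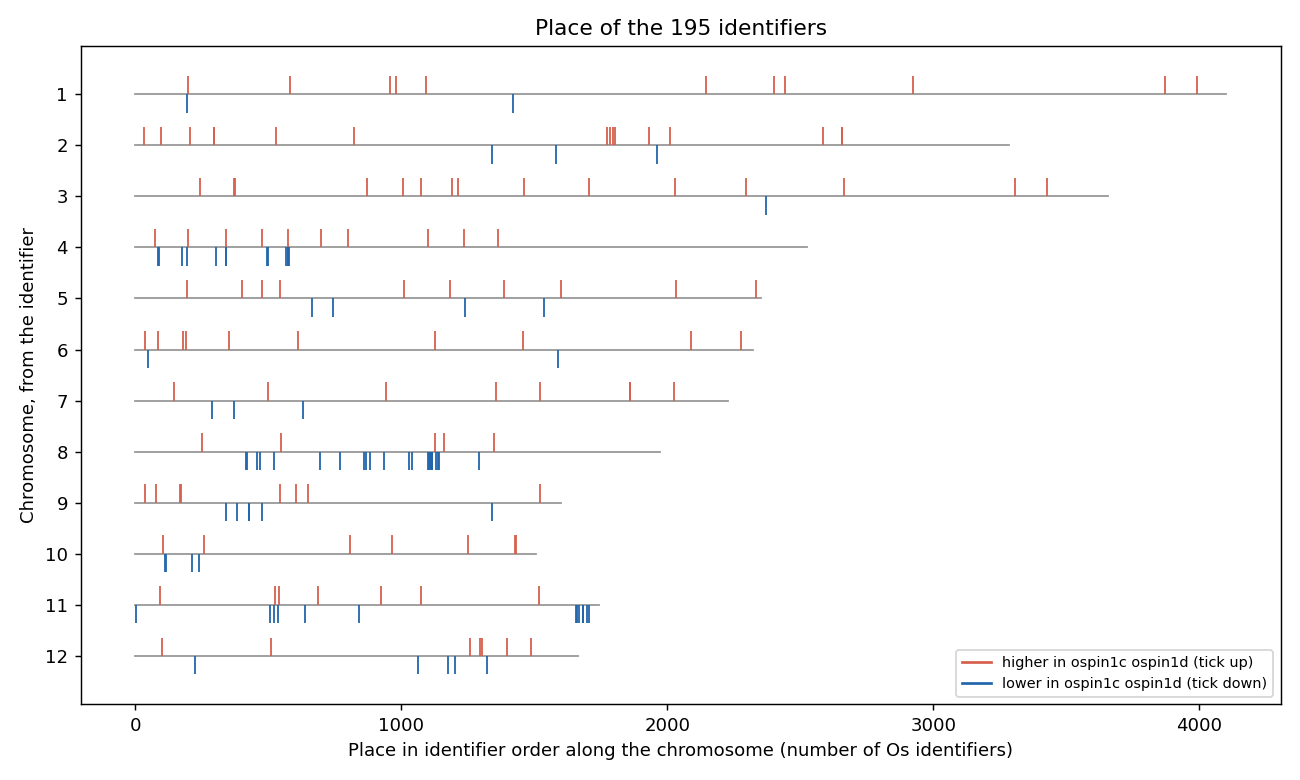
Place of the members in identifier order along the 12 chromosomes (horizontal axis, number of Os identifiers from the first); ticks up mark the higher set and ticks down the lower set. Ticks of both directions occur on all 12 chromosomes. Downward ticks are most numerous on chromosomes 4, 8 and 11, which hold 51 of 81.

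A stretch was defined as at least 3 members of the same direction, each within 20 Os identifiers of the next. The lower set had 28 of 81 members in 5 stretches, on chromosomes 4, 8 and 11, and the higher set 4 of 114 in a single stretch on chromosome 2. The total of 32 was 20 when neighbours had to lie within 10 identifiers, and 18 when the ospid lines had to lie within 0.3 of WT. Among all tested Os identifiers, the 3 ospin1c ospin1d libraries lay below the other 9 for 4.78% and above them for 2.57%. Members of a stretch were chosen for lying outside the other 9, so the share within it is a description.

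The stretch with most members ran on chromosome 8 from place 1102 to 1141, with 10 of the lower set among 40 identifiers. Of 27 tested identifiers there, 13 (48.1%) had all ospin1c ospin1d libraries below the other 9, so 3 beyond the members did, while 1 (3.70%) lay above and 1 member of the higher set lay inside. The member at place 1102 had 2.93, 2.17 and 1.88 FPKM in ospin1c ospin1d, 14.2, 17.6 and 15.7 FPKM in ospid C1, 14.1, 16.6 and 18.9 FPKM in ospid C2, and 16.6, 12.3 and 14.6 FPKM in WT. The member at place 1113 was listed at 0 in ospin1c ospin1d and had 2.77, 2.30 and 4.59 FPKM in WT. Both forms recurred, 4 of the 10 members being listed at 0 in ospin1c ospin1d and the others detected at a low level.

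Place 1116 held a member with 1.24, 1.37 and 1.63 FPKM in ospin1c ospin1d, 10.65, 8.67 and 9.50 FPKM in ospid C1, 9.06, 10.9 and 12.2 FPKM in ospid C2, and 10.9, 10.7 and 13.7 FPKM in WT. Its ospin1c ospin1d libraries lay close together. The member at place 1141, the end of the stretch, had 0.310, 0.417 and 0.596 FPKM in ospin1c ospin1d, 1.53, 1.79 and 0.638 FPKM in ospid C2, and 2.28, 2.47 and 2.03 FPKM in WT. Its lowest ospid C2 library nearly reached the ospin1c ospin1d range.

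On chromosome 11 a stretch of 8 members ran from place 1657 to 1707, among 51 identifiers. Of the 17 tested, 11 (64.7%) had all ospin1c ospin1d libraries below the other 9 and 0 above, and 4 members were listed at 0 in ospin1c ospin1d. The member at place 1661 was among these 4, with 43.9, 36.7 and 42.5 FPKM in ospid C1, 38.2, 42.9 and 42.1 FPKM in ospid C2, and 45.4, 33.8 and 40.4 FPKM in WT. The WT values rested on 1448 to 1861 reads. Place 1682 held a member also listed at 0 in ospin1c ospin1d, with 4.77, 4.46 and 5.33 FPKM in WT. It had 5.88, 8.74 and 5.61 FPKM in ospid C1, and 6.27, 6.82 and 7.71 FPKM in ospid C2, all above WT. Its log2 ratios against WT were 0.40 for ospid C1 and 0.44 for ospid C2, toward the edge of the window. For the members listed at 0 at places 1669 and 1698 they were 0.39 and 0.43 for ospid C1, and 0.49 and 0.35 for ospid C2.

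Further along it, at place 1684, a member had 1.78, 1.72 and 1.37 FPKM in ospin1c ospin1d and 27.6, 16.3 and 21.4 FPKM in WT. The last member, at place 1707, kept a higher level that varied between libraries, at 49.0, 74.1 and 25.02 FPKM in ospin1c ospin1d and 151, 111 and 115 FPKM in WT. Another stretch on chromosome 11, from place 508 to 537, held 3 members among 30 identifiers, all detected in every ospin1c ospin1d library. In it 5 of 18 tested identifiers (27.8%) lay below the other 9 and 2 (11.1%) above them, and 1 member of the higher set lay inside. The stretch on chromosome 8 that holds Os08g0330800 and Os08g0332100 ran from place 861 to 881, with 5 of 11 tested identifiers (45.5%) below and 0 above.

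The chromosome 4 stretch was the most compact, with 4 members of the lower set in 12 identifiers from place 568 to 579. All 4 were listed at 0 in each ospin1c ospin1d library. The member at place 575 had 0 reads in ospin1c ospin1d and 88, 62 and 80 reads in WT. Its direct neighbour at place 576 belonged to the higher set, with 13, 12 and 19 reads in ospin1c ospin1d and 0 in the other 9 libraries. Of the 6 tested identifiers in this stretch, 4 (66.7%) lay below the other 9 and 1 (16.7%) above.

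**Figure D4:**
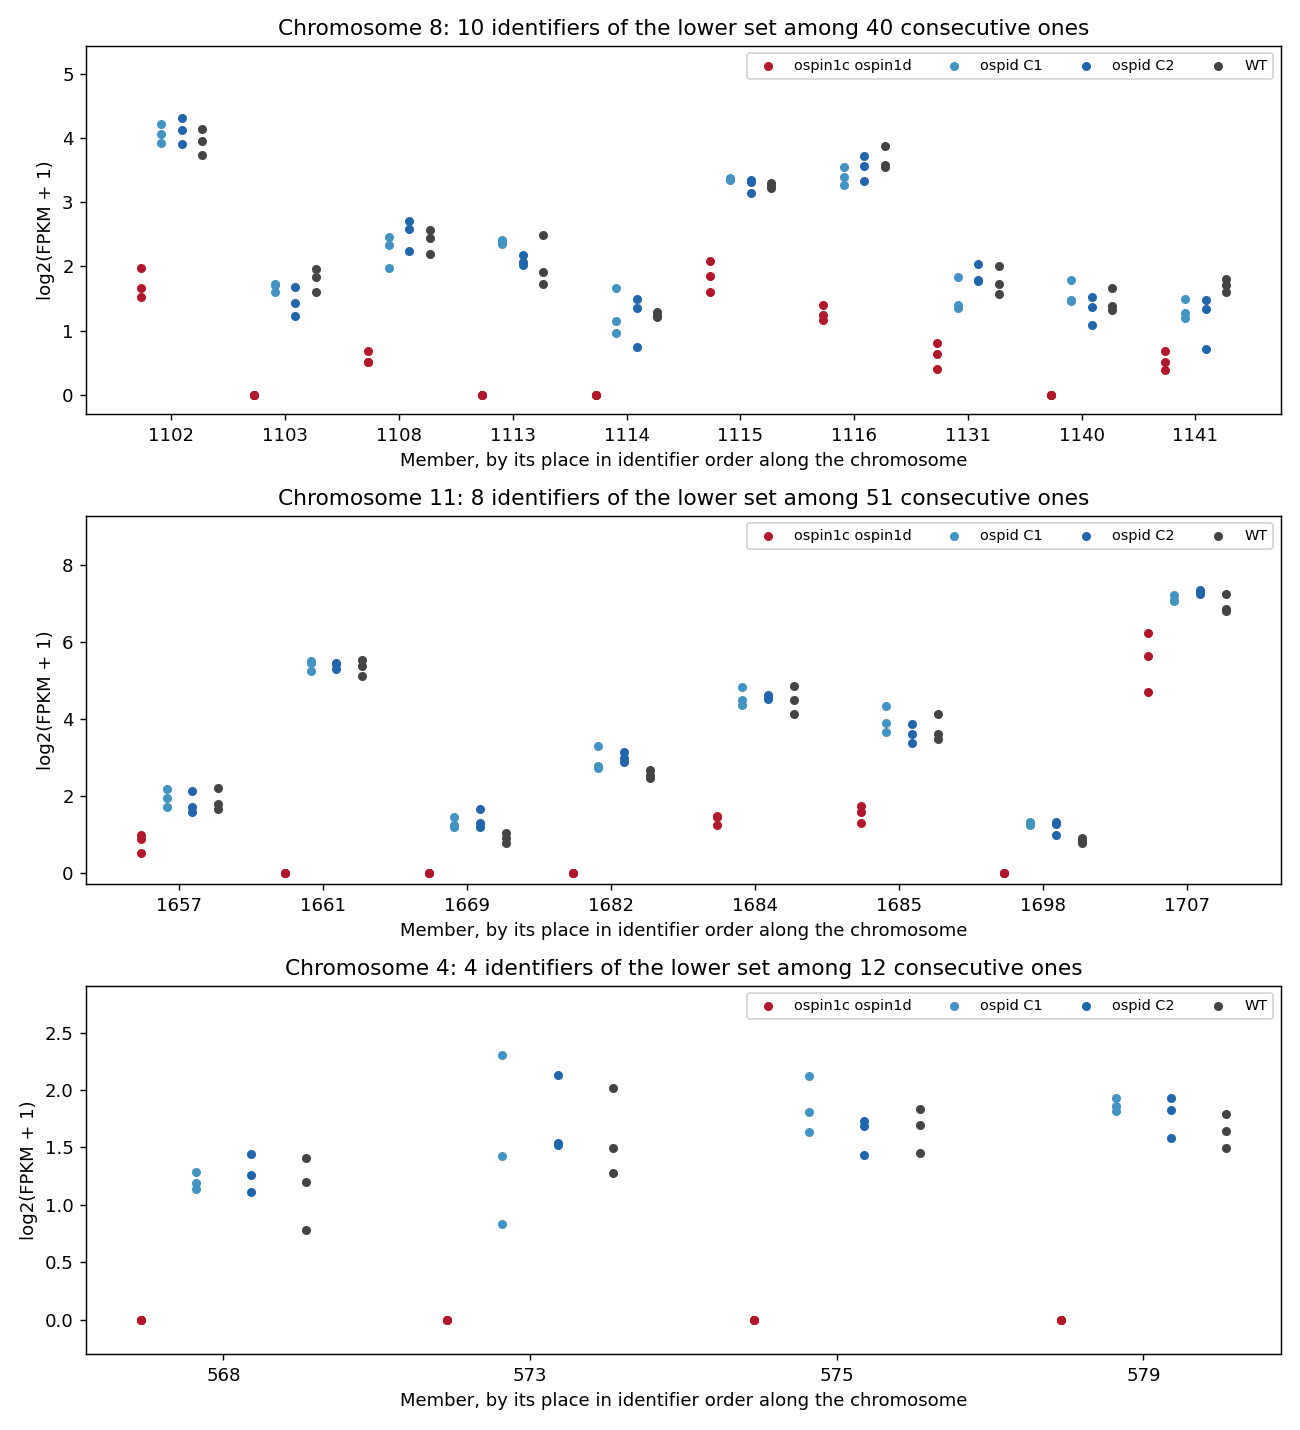
Values of log2(FPKM + 1) in each library (points, 3 per group) for members of the lower set in 3 stretches, on chromosomes 8, 11 and 4, by place along the chromosome. All 4 members on chromosome 4 sit at 0 in ospin1c ospin1d, as do 4 of 10 on chromosome 8 and 4 of 8 on chromosome 11.

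Members of opposite direction also stood beside each other. Of consecutive members at most 5 identifiers apart, 19 pairs were both lower, 6 both higher, and 5 and 3 mixed, with the lower or the higher member first. On chromosome 4, the member at place 341 had 7.83, 9.13 and 9.71 FPKM in ospin1c ospin1d, from 418 to 539 reads, and was listed at 0 elsewhere. The next identifier, at place 342, had 12.4, 12.8 and 13.02 FPKM in ospin1c ospin1d, 44.0, 35.2 and 36.3 FPKM in ospid C1, 26.9, 32.7 and 37.2 FPKM in ospid C2, and 26.4, 27.7 and 29.2 FPKM in WT. Both were even across the ospin1c ospin1d libraries. How reads of neighbouring or overlapping genes were counted, and whether strand was used, is not stated, so shared reads were not tested.

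Another mixed pair lay on chromosome 11. The higher member, at place 542, had 10.7, 7.99 and 11.7 FPKM in ospin1c ospin1d and 2.09, 1.73 and 2.52 FPKM in WT. The lower member, at place 537, had 5.23, 17.1 and 0.978 FPKM in ospin1c ospin1d, 26.8, 25.2 and 21.9 FPKM in ospid C1, 18.4, 25.3 and 27.8 FPKM in ospid C2, and 32.1, 25.002 and 27.7 FPKM in WT. Its ospin1c ospin1d libraries had 144, 467 and 28 reads, the widest ratio of any lower member detected in all 3, and the highest of them came close to the lowest ospid C2 value.

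The stretch of the higher set on chromosome 2 ran from place 1775 to 1804, with 4 members among 30 identifiers. Of 18 tested identifiers, 5 (27.8%) had all ospin1c ospin1d libraries above the other 9, and 1 (5.56%) below. At place 1795 a member had 5.27, 7.18 and 7.01 FPKM in ospin1c ospin1d and 1.76, 0.659 and 0.950 FPKM in WT. At place 1783 another had 2.66, 16.3 and 24.7 FPKM in ospin1c ospin1d and was listed at 0 in WT. The ospin1c ospin1d libraries of the second differed far more among themselves than those of the first.

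The 3 ospin1c ospin1d libraries also ranked unevenly among themselves. In the higher set, replicate 3 held the highest ospin1c ospin1d value for 66 of 114 members (57.9%), against 33.9% of all 23738 Os identifiers above 0 in all 3. Among the 87 members that met the filter of the fit it did so for 47 (54.0%). These ranks come from the values that chose the members, so the shares are a description. In the lower set, 56 members were above 0 in all 3, and replicate 3 held the lowest value for 27 of them (48.2%), against 32.2%. Replicate 2 held the highest for 23 of the 56 (41.1%), against 28.1%. Mean deviations from the group mean of log2(FPKM + 1) were -0.18, -0.14 and 0.33 in replicates 1, 2 and 3 for the higher set, 0.00, 0.11 and -0.12 for the lower set, and 0.00, -0.03 and 0.02 for all Os identifiers. Uneven ranking was not limited to ospin1c ospin1d, since ospid C2 replicate 3 was the highest of its group for 68.4% of the higher set and 54.4% of all Os identifiers, counting those above 0 in all 3 libraries of that group.

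In 28 of the higher set the highest ospin1c ospin1d library exceeded the lowest by more than 3 times. Replicate 3 was the highest in 23 of these 28, and replicate 1 the lowest in 18. So wide a range was not counted over all Os identifiers, so these counts are not read as particular to the members. At place 1185 on chromosome 5, a member had 0.326, 0.461 and 11.2 FPKM in ospin1c ospin1d, from 5, 7 and 179 reads, and at most 0.196 FPKM elsewhere. The one at place 2277 on chromosome 6 had 6, 3 and 120 reads in ospin1c ospin1d. For both, the mean was carried by replicate 3, with a few reads in the other ospin1c ospin1d libraries.

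An intermediate case, at place 1431 on chromosome 10, had 2.08, 11.5 and 25.96 FPKM in ospin1c ospin1d, from 8, 44 and 104 reads, and was listed at 0 in WT. In the lower set 9 members had a range of more than 3 times, with replicate 2 the highest in 8 and replicate 3 the lowest in 8. These too have no count over all Os identifiers beside them. At place 343 on chromosome 9, a member had 3.68, 17.3 and 2.18 FPKM in ospin1c ospin1d, and 32.3, 30.4 and 33.3 FPKM in WT. Its WT libraries lay close together, and replicate 2 of ospin1c ospin1d lay nearest to them.

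Membership also moved with single libraries. With ospin1c ospin1d replicate 1 left out, the same conditions picked 184 higher identifiers, 106 of them members, and 99 lower ones, 80 of them members. With replicate 2 left out they picked 137 and 91, of which 108 and 77 were members. With replicate 3 left out they picked 118 and 94, of which 93 and 76 were members.

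**Figure D5:**
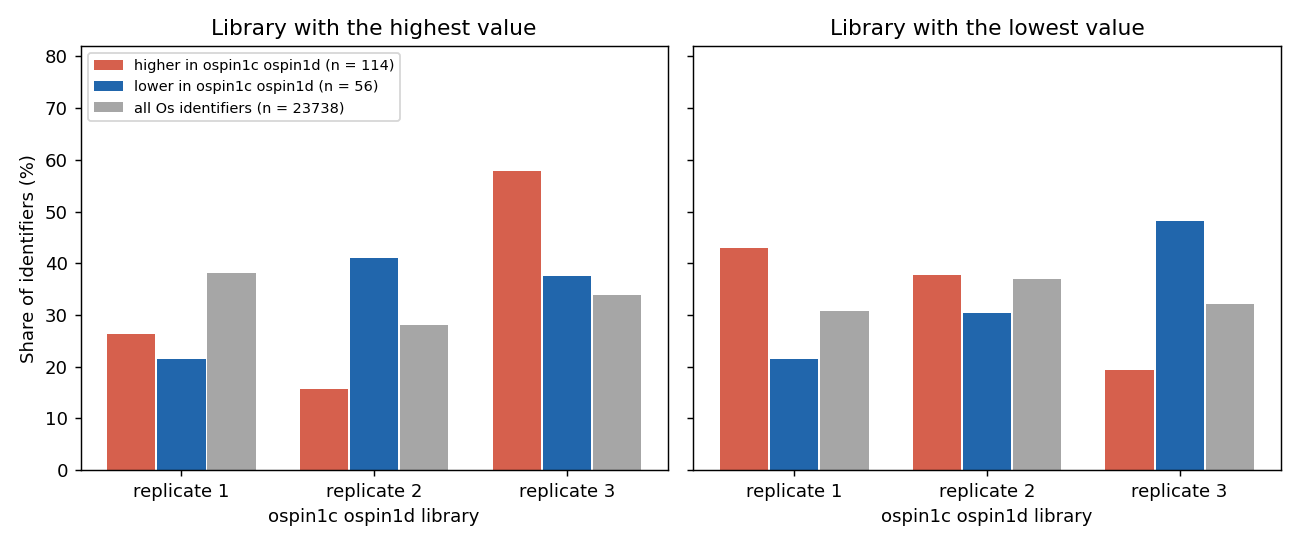
Share of identifiers (vertical axis, percent) whose highest (left) or lowest (right) ospin1c ospin1d value lay in each replicate, for the higher set, the lower set and all Os identifiers, each above 0 in all 3 libraries. Replicate 3 is the highest for 57.9% of the higher set and the lowest for 48.2% of the lower set, against 33.9% and 32.2% of all Os identifiers.

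The median within-group SD of log2(FPKM + 1) over the higher set was 0.28 in ospin1c ospin1d, 0.17 in ospid C1, 0.17 in ospid C2 and 0.16 in WT. Over its 87 members that met the filter of the fit it was 0.21 in ospin1c ospin1d, ospid C1 and WT, and 0.22 in ospid C2. A member under 1 FPKM elsewhere met that filter only if every ospin1c ospin1d library reached 1 FPKM. The filter thus left out members with uneven ospin1c ospin1d libraries, so nothing is read from the lower SD. Over the lower set it was 0.14 in ospin1c ospin1d, 0.17 in ospid C1, 0.18 in ospid C2 and 0.21 in WT. Over all Os identifiers it was 0.12 in ospin1c ospin1d, 0.15 in ospid C1, 0.15 in ospid C2 and 0.14 in WT. Over the tested Os identifiers it was 0.14 in ospin1c ospin1d, 0.19 in ospid C1, 0.20 in ospid C2 and 0.17 in WT. Levels differed between those groups as well, and their part in the spread was not tested. Lower members in stretches had a median SD of 0.04 in ospin1c ospin1d, where 13 of 28 were listed at 0, and the other 53 one of 0.20.

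The choice of members bounded the ospid lines, so few calls among them follow from it. For ospid C1 against WT, limma called 0 of the 87 tested members of the higher set and 1 of the 81 of the lower set, which was higher in ospid C1. Of all features 15.5% were called, 10.2% higher and 5.30% lower. An unadjusted p under 0.05 was reached by 3 of the higher and 6 of the lower set. For ospid C2 against WT, limma called 0 members of either set, beside 10% of all features, 4% higher and 6.01% lower. An unadjusted p under 0.05 was reached by 4 of the higher and 8 of the lower set. These comparisons share the WT libraries with the one that chose the members.

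With the mean of both ospid lines set against ospin1c ospin1d, 83 of the 87 in the higher set were called lower in the ospid lines, beside 6.96% of all features. Of the lower set, 78 of 81 were called higher in them, beside 12.2% of all features and 19.2% in either direction. This comparison was part of the choice, and nothing is read from it. Between the ospid lines, ospid C2 against ospid C1, limma called 0 members, beside 0.00941% of all features, and voom on recovered reads also called 0. The choice bounded both ospid lines against WT, and with them their difference, so nothing is read from these calls either. An unadjusted p under 0.05 was reached by 3 of the higher and 1 of the lower set. The median log2 difference, ospid C2 minus ospid C1, was 0.00 in both sets and -0.09 over all features.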

How the data were processed

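Each library's table, as the authors deposited it, lists 32552 identifiers with an FPKM value, per the file headers. Tools recorded in the submitters' processing notes are HTSeq 0.6.0, HISAT2 2.1.0 and Bowtie2 2.2.3, with IRGSP-1.0 as genome build. Their roles and settings are not stated there. Groups and replicate numbers came from the sample titles. Reads were recovered from the FPKM steps with the smallest length that gave whole reads, within 0.01, so lengths and reads are lower bounds.

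The members and lists were chosen with earlier results of these data known. Members were picked with a pseudocount of 1 and no filter on low values. A limma 3.58.1 fit in R 4.3.3 (all 12 libraries, 4 group means, log2(FPKM + 1), mean-dependent prior, Benjamini-Hochberg adjustment over 21250 features) gave the calls. It was also run on simulated data, where the changed features had WT levels above those of most members, so low members were not covered. By rule, the 2 members with the largest log2 ratio in each direction are named. The reference table of 39387 genes matched 1 of 32552 identifiers, so annotation groups, marker lists and the targeted genes could not be examined, and no sequence is shown.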

Additional observations from a re-analysis of the deposited data

Results flagged for a closer look

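Of the members named by rule, all 4 were looked at again because the effects of the mutant lines differ by a direct limma comparison, which the choice of members built in. The mean of both ospid lines minus ospin1c ospin1d, on the log2(FPKM + 1) scale, was -6.28 for Os03g0223301 and -5.67 for Os06g0204100, at or near 0 in the ospid lines. It was 5.60 for Os08g0330800 and 5.71 for Os08g0332100, at or near 0 in ospin1c ospin1d.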

How the results depend on the processing

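For 30 tested members described singly, 548 values under the alternatives had the direction reported and 522 the same side of the limma threshold. All 3 ospin1c ospin1d libraries lay outside the other 9, so dropping libraries or changing the pseudocount or filter could not reverse a direction. This contrast also chose the members, so nothing is read from either count. The lower set grew to 128 with a pseudocount of 0.1, 68 of them members, and the higher set shrank to 73 at a log2 ratio of at least 1, by construction. The higher set was 143 with that pseudocount, 66 of them members. Members in stretches numbered 20 within 10 identifiers and 18 with the ospid lines within 0.3. Dropping 1 library at a time gave 109 to 184 higher and 77 to 99 lower identifiers, 27 to 42 in stretches, 16 to 66 called in the higher set, 43 to 69 called in the lower set, and 185 to 788 called features. With an ospin1c ospin1d library dropped, members detected only there no longer met the filter of 3 libraries. The cause of the other changes was not tested. Libraries with the same replicate number were not paired by the data: deviations from group means correlated at -0.227 to 0.0694 over 18 such pairs, and 3 of 12 libraries correlated best with their own number. With the replicate block, 45 higher and 62 lower members and 325 features were called. Depth limits low members, 19 of the higher set having fewer than 10 reads in an ospin1c ospin1d library.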

Other observations

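Features starting with EPlOSAG, which the choice of members left out, also held identifiers with this pattern. Of 3584, 11 (0.307%) met the same conditions in the higher direction and 3 (0.0837%) in the lower. Of Os identifiers 0.394% and 0.280% did. All 9 libraries outside ospin1c ospin1d were listed at 0 for 10 of the 11, while this held for 10 of the 114 members of the higher set. How many of all 3584 were at 0 there was not counted, so no difference is read from these counts. The 11 had recovered lengths of at least 29 to 173 bases.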
